A study of Pan troglodytes and Macaca mulatta with 12 samples.

Results

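Toll-like receptors and the cytosolic sensor NOD1 detect microbial products in B cells. The genes described here are the receptors TLR1, TLR2, TLR6, TLR7 and TLR10, the receptor-like protein CD180, the adaptor MYD88, the chaperone UNC93B1, the transcription factor IRF5 and NOD1. They were taken from a given list of 10 gene identifiers, drawn up with earlier results of these data known. Of these, 9 were found among the 16903 gene identifiers in the files. The identifier listed for IRF5, a transcription factor activated downstream of several Toll-like receptors, was in none of the files, and IRF5 was not analysed here. All 9 genes passed the filter on low counts, which asked for 3.97 CPM (by raw library totals) in 6 libraries. NOD1 passed it through the chimpanzee lines alone (6 chimpanzee and 0 macaque lines). TLR6 reached this level in 6 macaque and 3 chimpanzee lines and would not have passed on the chimpanzee lines alone. TLR2 reached it in 4 chimpanzee and 2 macaque lines, just enough to pass. No exon of theirs overlapped an exon of another gene.

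Transcripts were sequenced from lymphoblastoid cell lines, a form of B lymphocyte made immortal so that it grows in continued culture. One group was 6 chimpanzee (Pan troglodytes) lines, 3 from females and 3 from males. The other was 6 rhesus macaque lines, 2 from females and 4 from males. Each line gave 1 library. The labels list the lines as separate samples without naming the animals, so p-values measure the spread between these samples. All lines were grown in RPMI-1640 medium with serum, with no treatment, allele or age given in the labels. A line is an outgrowth of cultured cells and not a tissue sample, and the sources used here do not tell the history of each line.

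Toll-like receptors share leucine-rich repeats that bind the microbial product and a TIR domain that signals through adaptors. TLR2 pairs with TLR1 or TLR6 at the cell surface to recognise bacterial lipopeptides, TLR10 is a related surface receptor found on B cells, and TLR7 recognises RNA in endosomes. UNC93B1 carries TLR7 and other nucleic acid receptors to endosomes. CD180 resembles a Toll-like receptor without the TIR domain, works together with the secreted partner protein LY86 and regulates B cell responses. MYD88 is the adaptor used by nearly all Toll-like receptors. NOD1 and its relative NOD2 recognise fragments of bacterial cell wall in the cytosol and signal through the kinase RIPK2.

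Library totals ran from 1434241 to 4751954 counts. Of the 6 B cell markers found, all had enough counts for testing, and their summed level ran from 2895 to 8857 CPM (read counts relative to the scaled library size) in chimpanzee and from 5455 to 10259 CPM in macaque lines. PAX5, a B cell transcription factor, was higher in chimpanzee by 2.51 on the log2 scale (edgeR adjusted p = 8.15e-07). The 4 T cell markers summed to between 4.84 and 32.1 CPM in chimpanzee lines, where CD3D and CD3E had 0 counts, and to between 2.44 and 232 CPM in macaque lines. CD3D stood at 99.2 and 171 CPM in macaque replicates 2 and 6 and at 12.3 CPM or less in the other macaque lines. The 2 NK cell markers summed to between 45.3 and 297 CPM in chimpanzee lines and between 473 and 1666 CPM in macaque lines. NKG7 made up most of the macaque sum and was lower in chimpanzee (means 53.5 and 872 CPM, edgeR adjusted p = 2.45e-04). NCAM1 had the larger mean in chimpanzee and was not called (means 72.9 and 44.1 CPM, edgeR adjusted p = 0.461). The 4 myeloid markers found reached at most 14.3 and 23.2 CPM, with CD14 and S100A8 at 0 in all chimpanzee lines and LYZ at 0 in all macaque lines. The 2 fibroblast markers reached 42 and 5.55 CPM, and COL1A1 was higher in chimpanzee (means 18.8 and 2.33 CPM, edgeR adjusted p = 0.00263). The 2 plasma cell markers summed to between 138 and 392 CPM in chimpanzee lines and between 277 and 492 CPM in macaque lines, almost all of it PRDM1 (means 263 and 385 CPM), with SDC1 near 0. In such bulk samples, fewer cells of a type and less RNA per cell cannot be told apart, and the part of these markers in the differences below was not tested. Chimpanzee replicate 1 and macaque replicates 5 and 6 stood apart in genes of chromosome 19, on which no gene of the set lies. Without these 3 lines, 3 genes of the set were higher and 2 lower, TLR1 being added (edgeR adjusted p = 0.0189). With both CD3D-rich macaque lines left out, 3 of the 9 genes were again higher and 1 lower in chimpanzee.

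NOD1, TLR7 and MYD88 were higher in chimpanzee and TLR6 was lower, while TLR1, TLR2, TLR10, CD180 and UNC93B1 did not pass the test (edgeR quasi-likelihood test over all 9440 tested genes, Benjamini-Hochberg adjusted p under 0.05). These 4 of 9 genes compare with a background of 48.3% of all tested genes called in either direction, 24.7% higher and 23.6% lower in chimpanzee. The share in the set is thus near the background and is not a result about the set. It includes NOD1, which entered the test through 1 species alone. The median log2 difference, chimpanzee minus macaque throughout, was -0.05 over the 9 genes and 0.04 over all tested genes. In the same 4 genes all lines of one species lay above all lines of the other, which held for 27.1% of all tested genes. A difference beyond 2-fold passed its own test for 3 of the 9 genes (NOD1, TLR7 and TLR6), against a background of 17.3%. With males only, TLR6 no longer passed it (edgeR adjusted p = 0.105).

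**Figure D1:**
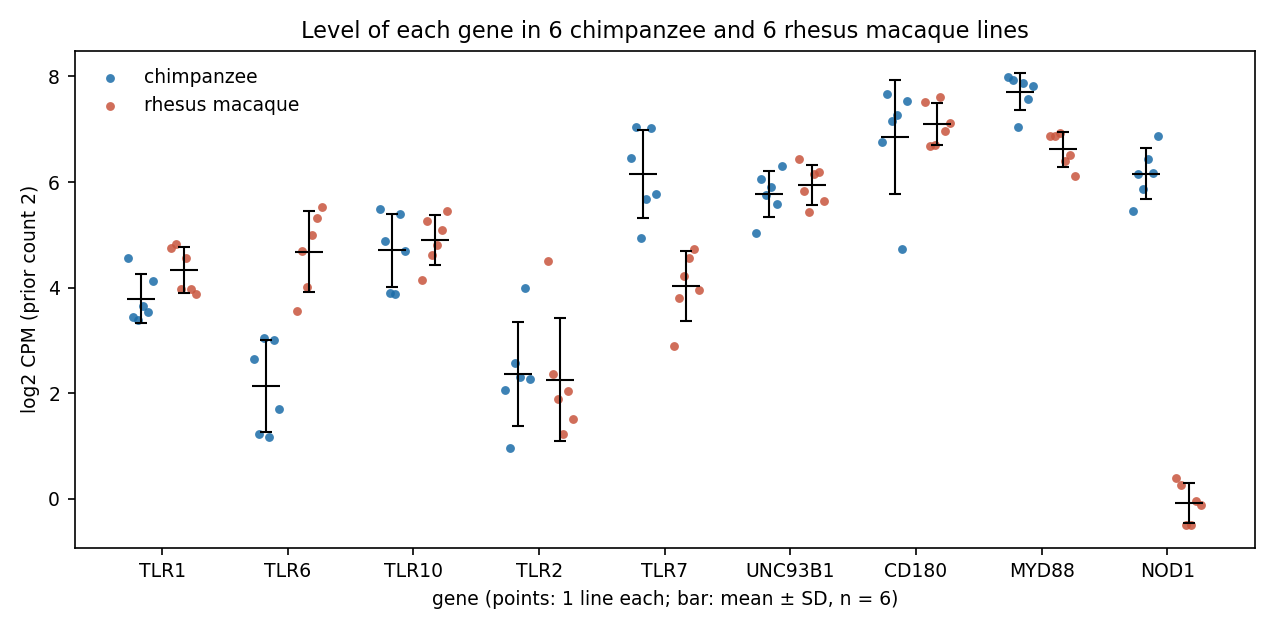
Level of the 9 genes on a log2 CPM scale (prior count 2) in each of the 6 chimpanzee lines (blue) and 6 macaque lines (red), with the mean and SD of each species. The species are fully apart for TLR6, TLR7, MYD88 and NOD1 and overlap for the other genes; 1 chimpanzee line lies low for CD180 and 1 macaque line lies high for TLR2.

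Among the surface receptors, TLR6 showed the clearest difference. TLR6 (ENSG00000174130, chromosome 4 from 38504618 to 38507555 in the coordinates of the files, whose build the sources used here do not name) stood at 5.58, 1.64, 7.51, 1.54, 7.26 and 2.55 CPM in chimpanzee replicates 1 to 6. In macaque replicates 1 to 6 it stood at 11, 25.2, 15.5, 31, 39.4 and 45.4 CPM. Every macaque line lay above every chimpanzee line. The means were 4.35 ± 2.77 CPM in chimpanzee lines and 27.9 ± 13.4 CPM in macaque lines (SD, n = 6 each), and TLR6 fell by 2.71 on the log2 scale (SE 0.48, edgeR adjusted p = 3.85e-04), a 6.53-fold lower level in chimpanzee. The highest TLR6 value was in macaque replicate 6, one of the CD3D-rich lines. Without replicates 2 and 6 the log2 difference was -2.52 (edgeR adjusted p = 0.00292). TLR6 was counted on 1 exon, with 67 counts in all chimpanzee lines and 555 in all macaque lines.

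TLR1, the other partner of TLR2, overlapped between the species. TLR1 (ENSG00000174125, chromosome 4 from 38474275 to 38482398) ranged from 9.76 to 23 CPM in chimpanzee lines and from 14.1 to 27.6 CPM in macaque lines. The chimpanzee line with the highest level, replicate 1, lay within the macaque range, and the other 5 chimpanzee lines reached at most 16.7 CPM. The log2 difference of -0.55 (95% interval -1.19 to 0.09) did not pass (edgeR adjusted p = 0.139). Chimpanzee replicate 1 decided this outcome, since TLR1 was called lower in chimpanzee without it, at -0.75 (edgeR adjusted p = 0.042). Reads from the most similar stretches of TLR1 and TLR6, which are close paralogs, could be split between them in ways the files do not show.

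TLR10 and TLR2 also overlapped. TLR10 (ENSG00000174123, chromosome 4 from 38450658 to 38454442) was measured at 43.9, 28.7, 14.3, 13.9, 41.2 and 25.3 CPM in chimpanzee replicates 1 to 6 and between 17.1 and 43 CPM in macaque lines. Its log2 difference was -0.14 (95% interval -0.84 to 0.57, edgeR adjusted p = 0.756), so a difference of more than 2-fold in either direction lay outside the interval. TLR2 (ENSG00000137462, chromosome 4 from 154843472 to 154846688) was low in both species, with medians of 4.18 CPM in chimpanzee lines and 3.21 CPM in macaque lines and 92 and 79 counts in all. Its log2 difference of -0.03 had a 95% interval from -1.50 to 1.44 (edgeR adjusted p = 0.975). This interval is too wide to exclude a 2-fold difference either way. Macaque replicate 1 stood alone at 22 CPM, and without it the TLR2 difference was 0.95 (edgeR adjusted p = 0.167).

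TLR10, TLR1 and TLR6 lie next to each other on chromosome 4, in this order in the files and, with 0 other protein-coding genes between them, in the RefSeq annotation of the chimpanzee assembly. The gap is 19.8 kb between TLR10 and TLR1 and 22.2 kb between TLR1 and TLR6. Of these adjacent receptors, TLR6 alone passed the species test. The next tested gene beyond TLR6, from 38546414 to 38621819, was also lower in chimpanzee (log2 difference -1.53, SE 0.57, edgeR adjusted p = 0.0373), with overlapping ranges. Per kilobase of listed exon, TLR6 lay below TLR1 in all 6 chimpanzee lines, with a median ratio of TLR6 to TLR1 of 0.186. In macaque TLR6 lay above TLR1 in 3 of 6 lines, with a median ratio of 1.1. The ranges of this ratio overlapped, from 0.119 to 0.711 in chimpanzee and from 0.387 to 2.99 in macaque.

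In the endosomal arm, the RNA receptor TLR7 was higher in chimpanzee and its chaperone UNC93B1 did not pass the test. TLR7 (ENSG00000196664, chromosome X from 12813552 to 12818401) stood at 87.2, 132, 30, 50.5, 129 and 54 CPM in chimpanzee replicates 1 to 6. In macaque replicates 1 to 6 it stood at 6.71, 13.3, 17.9, 23, 25.9 and 14.7 CPM. The lowest chimpanzee line lay just above the highest macaque line, so the species did not overlap. The means were 80.4 ± 42.9 and 16.9 ± 6.93 CPM (SD, n = 6 each), a log2 difference of 2.23 with an SE of 0.40 (edgeR adjusted p = 3.93e-04). TLR7 lies on chromosome X, and the groups hold different numbers of females. With males only the log2 difference was 3.14 (edgeR adjusted p = 7.30e-04), and with sex as a covariate it was 2.17 (edgeR adjusted p = 7.67e-04).

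UNC93B1 (ENSG00000110057, chromosome 11 from 67520649 to 67528169) ranged from 32.1 to 78.1 CPM in chimpanzee lines, with a median of 56.3 CPM. In macaque it ranged from 42.4 to 86 CPM, with a median of 63.5 CPM. Its log2 difference was -0.16 (95% interval -0.67 to 0.35, edgeR adjusted p = 0.611), so a 2-fold difference lay outside the interval. All 8 of its counted exons were tested for exon usage and none was called. Related copies of UNC93B1 exist in primate genomes, and reads shared with them were not examined. The ratio of TLR7 to UNC93B1 per kilobase ran from 0.133 to 0.645 in chimpanzee lines and from 0.0185 to 0.1 in macaque lines, without overlap. TLR7 stayed below UNC93B1 in all lines of both species.

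MYD88, the adaptor shared by these receptors, was about 2-fold higher in chimpanzee. MYD88 (ENSG00000172936, chromosome 3 from 38155009 to 38159514) was measured at 251, 245, 131, 234, 190 and 225 CPM in chimpanzee replicates 1 to 6 and 117, 117, 122, 83.7, 90.9 and 68.1 CPM in macaque replicates 1 to 6. The ranges did not overlap, although chimpanzee replicate 3 came close to the upper macaque lines. The log2 difference was 1.10 (SE 0.21, edgeR adjusted p = 5.99e-04). All 5 counted exons had a higher mean CPM in chimpanzee lines, and none was called for exon usage. The exons are parts of the same gene total, so this is a description.

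CD180 did not pass the test as a whole gene, but the use of 1 of its exons did. CD180 (ENSG00000134061, chromosome 5 from 66513872 to 66528368) was measured at 107, 203, 142, 153, 25.8 and 185 CPM in chimpanzee replicates 1 to 6 and between 103 and 194 CPM in macaque lines. Chimpanzee replicate 5 lay far below every other line of either species. The log2 difference was -0.05 (95% interval -0.83 to 0.72, edgeR adjusted p = 0.918), and without chimpanzee replicate 5 it was 0.16 (edgeR adjusted p = 0.598). LY86, its partner protein, did not pass either, with means of 46.2 ± 17.9 and 36.3 ± 24.6 CPM (SD, n = 6 each, edgeR adjusted p = 0.542).

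The use of single exons was tested relative to the rest of the gene (edgeR diffSpliceDGE, adjusted over all 87939 exons). Of the CD180 exons 1 of 3 was called, of the MYD88 exons 0 of 5 and of the UNC93B1 exons 0 of 8, against a background of 0.852% of all tested exons. The 5 Toll-like receptors had at most 1 exon with enough counts, so exon usage could not be tested in them. The called exon was CD180 exon 2 (chromosome 5 from 66517435 to 66517601, 167 bases). It held 4.58%, 2.42%, 3.69%, 3.27%, 3.12% and 3.39% of the CD180 counts in chimpanzee replicates 1 to 6. In macaque replicates 1 to 6 it held 0.333%, 0.481%, 0%, 0.499%, 0.847% and 0.312%. The shares of the species did not overlap, with 80 counts of this exon in chimpanzee and 11 in macaque (exon log2 difference 1.97, edgeR exon adjusted p = 0.0118). Leaving out any 1 library kept the call. The larger exons 1 and 3 were not called and held 89.5% and 7.12% of the counts in chimpanzee and 92.3% and 7.24% in macaque. The sources used here do not say how reads of each species were assigned to this short exon, and its part in the difference was not tested.

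NOD1 had by far the largest difference of the set and was almost unread in macaque. NOD1 (ENSG00000106100, chromosome 7 from 30430672 to 30484833) stood at 43.3, 70.1, 57.8, 86.3, 71.4 and 116 CPM in chimpanzee replicates 1 to 6. In macaque, replicates 1, 2, 5 and 6 had 1 count each and replicates 3 and 4 had 0. Every chimpanzee line lay far above every macaque line. The means were 74.2 ± 25.2 CPM in chimpanzee lines and 0.264 ± 0.251 CPM in macaque lines (SD, n = 6 each), a log2 difference of 8.06 with an SE of 0.46 (edgeR adjusted p = 3.88e-08). Since NOD1 entered the test through the chimpanzee lines alone, this p and the rank below describe it and are not independent support. With no filter on low counts the log2 difference was 8.04, and with males only it was 7.47. By size this ranked 27 among all 9440 tested genes towards chimpanzee, of which 0.307% reached a log2 difference of 8. Summed over lines there were 1381 counts in chimpanzee and 4 in macaque, a 355-fold ratio per scaled library size with an exact 95% counting interval from 138 to 1304. The counts were pooled over the lines of each species, and reads carry no molecular identifiers. The interval thus covers counting error only and leaves out the spread between lines.

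The chimpanzee counts of NOD1 were spread over all 12 counted exons, each of which was higher in chimpanzee. Of these exons, 10 had 0 counts in all macaque lines. The exons are parts of the same gene total and are listed only where a read was counted. With 4 macaque counts this is a description and no separate support. The 4 macaque counts fell on exon 1 (1180 bases) and exon 7 (1825 bases), the longest exons, which held 447 and 557 counts in chimpanzee. Exon usage cannot be read for NOD1, since 4 macaque counts give no shares to compare. Whether the NOD1 exons could be matched by reads of the macaque genome as well as by chimpanzee reads was not tested, because the sources used here do not give the rule for matching exons across species.

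**Figure D2:**
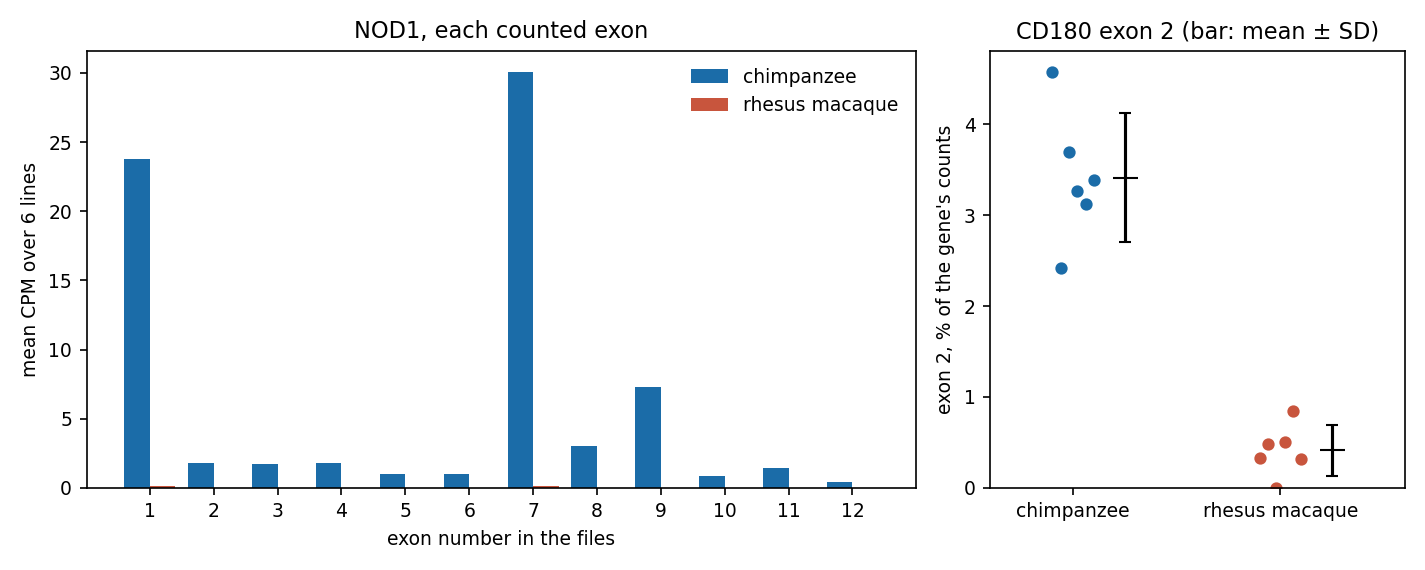
Left, mean CPM over 6 lines (y axis, linear) of each of the 12 counted NOD1 exons (x axis) in chimpanzee (blue) and macaque (red), where the macaque bars are at or near 0 throughout. Right, the percentage of CD180 counts in exon 2 for each line, with mean and SD beside the points; the chimpanzee lines run from 2.42% to 4.58% and the macaque lines from 0% to 0.847%.

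Levels of different genes were compared per kilobase of listed exon. In chimpanzee the order from high to low was MYD88 (75.7 CPM per kilobase), CD180 (50.4), UNC93B1 (48.7), NOD1 (17.5), TLR7 (16.6), TLR10 (7.93), TLR1 (5.06), TLR2 (1.74) and TLR6 (1.48). Only the step from UNC93B1 to NOD1 was free of overlap between neighbours in this order. In macaque the order was UNC93B1 (54.6 CPM per kilobase), CD180 (52.3), MYD88 (35.5), TLR6 (9.5), TLR10 (8.64), TLR1 (7.42), TLR7 (3.49), TLR2 (1.9) and NOD1 (0.0623). Here the steps from MYD88 to TLR6 and from TLR2 to NOD1 were free of overlap. TLR6 thus ranked 9 in chimpanzee and 4 in macaque, and NOD1 ranked 4 and 9. By plain CPM, TLR6 ranked 5 in macaque, behind TLR10. Per kilobase, MYD88, CD180 and UNC93B1 took the upper 3 places in both species. By plain CPM, UNC93B1 ranked 5 in chimpanzee, behind TLR7 and NOD1.

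The lines of a species differed most in TLR2 and, among the chimpanzee lines, also in CD180. The ratio of the highest to the lowest line was 12.5 for TLR2 in chimpanzee and 13.6 in macaque, from counts of few reads. For CD180 it was 7.86 in chimpanzee and 1.89 in macaque. MYD88 was the steadiest gene in both species by this ratio, at 1.91 and 1.79. Single lines combined high and low receptors. Chimpanzee replicate 5 had the lowest CD180 level of the chimpanzee lines and the highest TLR2 level, at 15.3 CPM. Rhesus macaque replicate 1 had the highest TLR2 and UNC93B1 levels of the macaque lines and the lowest TLR6, TLR7 and TLR10 levels.

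Deviations of log2 CPM from the species mean were compared over the 12 libraries with the other 52 tested genes of the set and of the pathway lists below. TLR6 was most like TRAF3 (Spearman's rho 0.86), and UNC93B1 was most like IKBKB (0.85). For TLR7 the gene most like it was IRF8 (0.62), followed by TLR10 (0.61). CD180 was most like UNC93B1 (0.71), TLR1 was most like TRAF6 (0.66), TLR2 was most like TOLLIP (0.68) and MYD88 was most like TRAF6 (0.65). For NOD1 the highest value was with UNC93B1 (0.65), but its 6 macaque values rest on 0 or 1 count each and so depend on library depth and the prior count. Within 6 lines of a species the values differed. For TLR7 and TLR10 rho was 0.71 in chimpanzee and 0.14 in macaque, for TLR7 and IRF8 0.49 and 0.31, and for TLR1 and TRAF6 0.37 and 0.94. For TLR6 and TRAF3 it was 0.77 and 0.94, and for UNC93B1 and IKBKB 0.89 and 0.94. The values over 12 libraries are the highest of 52 values each, all genes share the depth of their libraries, and no test was made.

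Genes that work with these receptors were taken from 5 lists, of which 49 of 53 genes were found in the files and 44 were tested. Of the 44, 19 were higher and 5 lower in chimpanzee, 54.5% against 48.3% of all tested genes, with a median log2 difference of 0.68 against 0.04. Of the other Toll-like receptors, TLR3, TLR4, TLR5 and TLR8 had too few counts to be tested, with means of at most 1.91 CPM in either species, and TLR9 was not analysed here.

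Among the accessory and trafficking proteins, 2 of 7 tested genes were higher in chimpanzee and 0 were lower. LGMN, an endosomal protease that can cleave Toll-like receptors, stood at 19.8 ± 12 CPM in chimpanzee lines and 3.04 ± 1.61 CPM in macaque lines (SD, n = 6 each, log2 difference 2.75, edgeR adjusted p = 4.85e-04). SLC15A4, an endolysosomal transporter needed for TLR7 responses, stood at 235 ± 134 and 73.2 ± 19.2 CPM (log2 difference 1.69, edgeR adjusted p = 6.34e-04). The chaperones HSP90B1 and CNPY3 were not called, with log2 differences of 0.18 and 0.14. CD14, a co-receptor of TLR4, had too few counts to be tested.

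Of the 15 adaptors and kinases, 8 were higher in chimpanzee and 2 were lower. The median log2 difference of this list was 0.80. The kinases that bind MYD88 were not alike. IRAK4, which starts the kinase cascade, was higher in chimpanzee by 2.36 on the log2 scale, IRAK2 by 2.74 and IRAK3, an inhibitor of the cascade, by 4.06 (edgeR adjusted p = 4.40e-04, 2.07e-04 and 4.38e-06). With males only IRAK2 was at 1.86, and IRAK3 ran from 3.46 to 4.80 over the alternatives, both still called. IRAK3 had 28 counts in all macaque lines and at most 2.91 CPM there, below the 3.97 CPM of the filter. Like NOD1, IRAK3 entered the test through the chimpanzee lines alone, so its p describes it and is not independent support. IRAK1 had means of 171 and 170 CPM and a log2 difference of 0.01 (edgeR adjusted p = 0.979). TNFAIP3, an enzyme that limits NF-kB signalling, stood at 1625 ± 656 CPM in chimpanzee lines and 307 ± 80.2 CPM in macaque lines (SD, n = 6 each, log2 difference 2.41, edgeR adjusted p = 1.91e-05). The inhibitor TOLLIP and the adaptor TRAF3 were lower in chimpanzee, with log2 differences of -1.31 and -0.80 (edgeR adjusted p = 0.00251 and 0.00492). TRAF3 was not called with males only (log2 difference -0.59, edgeR adjusted p = 0.177) or without its most counted exon (-0.54, edgeR adjusted p = 0.0604).

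In the NOD arm, 3 of 6 tested genes were higher in chimpanzee and 1 was lower. NOD2 went the opposite way to NOD1. It stood at 16.7, 51.7, 97.6, 91.3, 77.1 and 62.6 CPM in chimpanzee replicates 1 to 6 and at 790, 602, 328, 593, 472 and 642 CPM in macaque replicates 1 to 6. All macaque lines lay above all chimpanzee lines, with a log2 difference of -3.10 (SE 0.35, edgeR adjusted p = 1.01e-05). Per kilobase, NOD1 exceeded NOD2 in 3 of 6 chimpanzee lines and in 0 of 6 macaque lines. RIPK2, the kinase both sensors use, did not pass, at 124 ± 65.7 and 75.9 ± 17.1 CPM (SD, n = 6 each, edgeR adjusted p = 0.0833). CARD9, an adaptor that acts with NOD2, was higher in chimpanzee by 4.34 on the log2 scale (edgeR adjusted p = 3.27e-05). It had 13 counts in all macaque lines and at most 2.49 CPM there, below the 3.97 CPM of the filter. CARD9 thus entered the test through the chimpanzee lines alone, so this p describes it and is not independent support. BIRC2, a ubiquitin ligase, was higher by 2.39 and ERBIN, a protein that binds NOD2, by 1.44 (edgeR adjusted p = 3.62e-04 and 1.41e-04).

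Of the 16 tested NF-kB and IRF genes, 6 were higher and 2 lower in chimpanzee. The NF-kB subunits REL and NFKB1 were higher, by 2.19 and 1.19 on the log2 scale (edgeR adjusted p = 4.83e-05 and 5.47e-05), and so was the kinase IKBKE, by 2.44 (edgeR adjusted p = 4.28e-06). RELA, NFKB2 and RELB were not called, with log2 differences of 0.09, 0.27 and -0.41. The interferon regulatory factors split. IRF7, which acts downstream of TLR7, was higher in chimpanzee by 2.09 on the log2 scale (edgeR adjusted p = 0.00207). IRF8, a factor of B cell and myeloid development, stood at 69.3 ± 17.1 CPM in chimpanzee lines and 800 ± 184 CPM in macaque lines (SD, n = 6 each, log2 difference -3.53, edgeR adjusted p = 1.28e-07). IRF3 was lower by a smaller margin, at -0.97 (edgeR adjusted p = 0.003), and with males only it was -0.88 and not called (edgeR adjusted p = 0.0942).

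**Figure D3:**
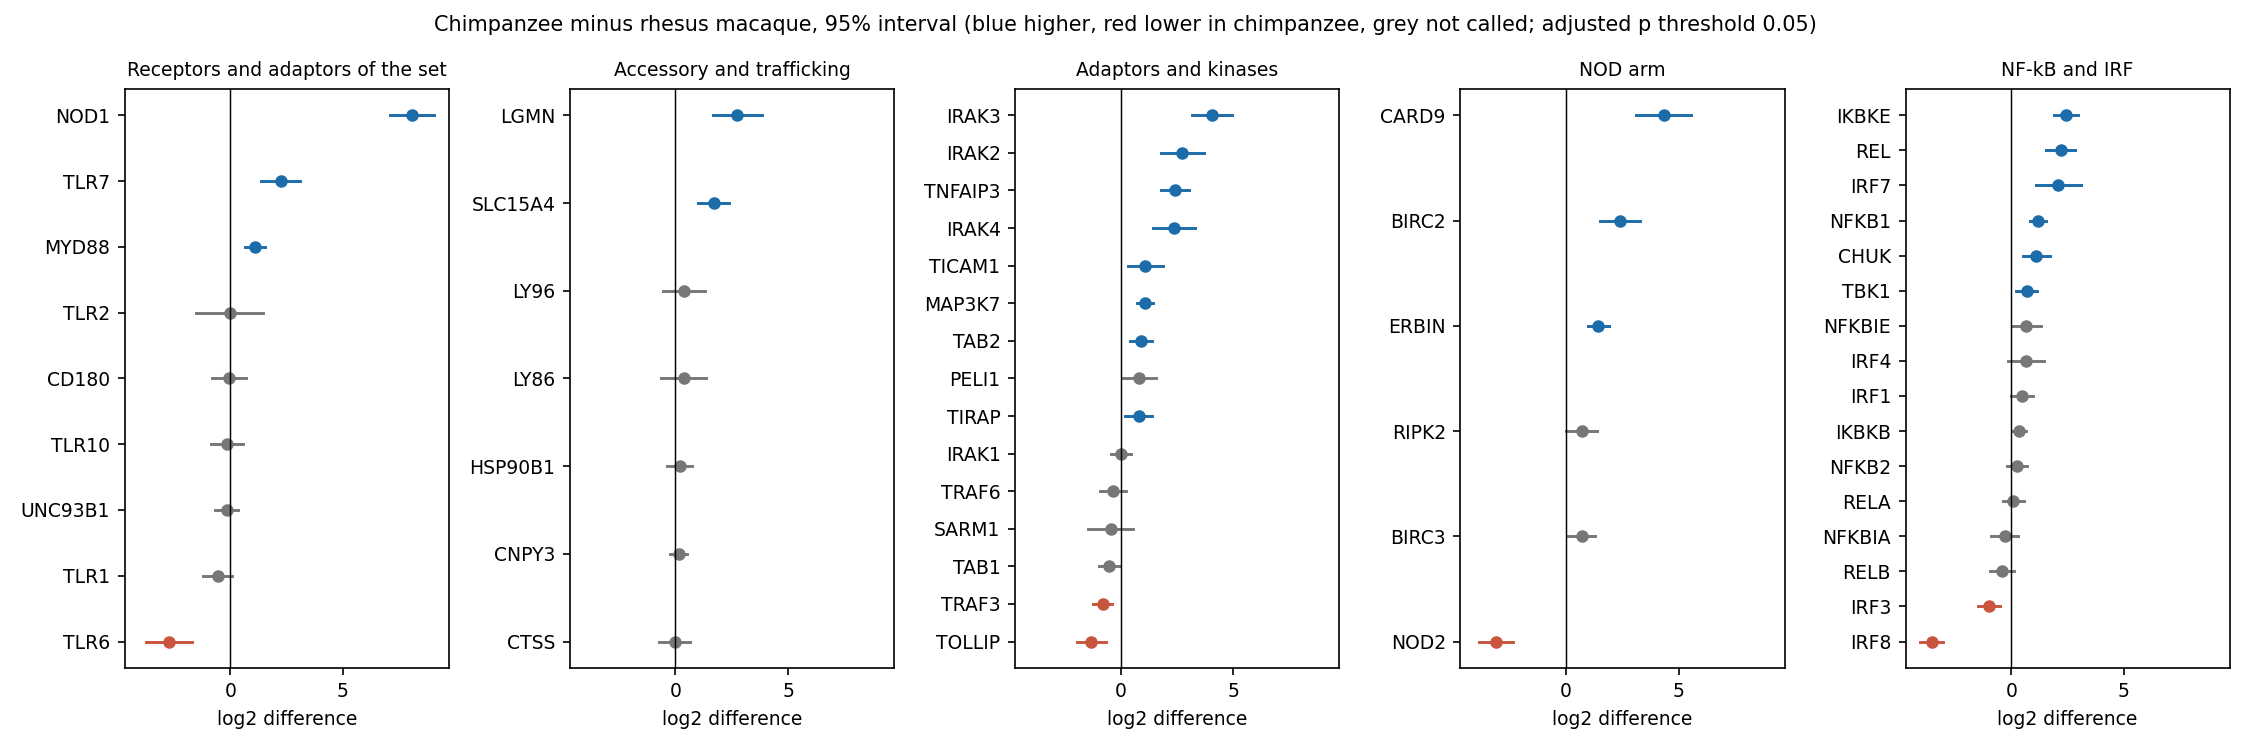
Log2 difference, chimpanzee minus macaque, with its 95% interval for the 9 genes of the set and the 44 tested pathway genes, in 5 panels with a shared x axis. Blue genes were higher and red genes lower in chimpanzee, and grey genes were not called; NOD1 at 8.06 lies farthest to the right and IRF8 at -3.53 farthest to the left.

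The tested genes next to each member were compared by position, since the files give no names for them. Around NOD1, 5 of the 6 nearest tested genes (3 on each side) were also higher in chimpanzee, against 24.7% of all tested genes. The outermost gene before NOD1, from 29926273 to 29995902, had 238 CPM in chimpanzee lines and 0.269 CPM in macaque lines (log2 difference 9.46). The gene 20.1 kb after NOD1, from 30504944 to 30510977, had 14.9 CPM in chimpanzee lines and 0.897 CPM in macaque lines (log2 difference 4.01, edgeR adjusted p = 7.33e-06). A gene near 0 in macaque ran from 30917993 to 30931656 (log2 difference 7.70, edgeR adjusted p = 3.88e-06). Like NOD1, this gene (0.127 CPM in macaque lines) and the outermost gene before NOD1 entered the test through the chimpanzee lines alone. The gene 20.1 kb after NOD1 passed the filter mainly through the chimpanzee lines, given its mean of 0.897 CPM in macaque lines. The count of 5 of 6 higher neighbours thus describes the region and is not independent support. Between the gene 20.1 kb after NOD1 and the gene starting at 30917993 lay a gene with 404 and 226 CPM that did not pass (edgeR adjusted p = 0.0561). All 3 tested genes before MYD88 were also higher in chimpanzee, while none of the 3 genes after it was called. The nearest, from 38139211 to 38153619 and 1.39 kb away, stood at 158 against 79 CPM (SE of the log2 difference 0.18, edgeR adjusted p = 3.45e-04). The next had a log2 difference of 1.49, and the outermost 5.65, with 14.3 CPM in chimpanzee lines and 0.311 CPM in macaque lines. This outermost gene also entered the test through the chimpanzee lines alone, so its call describes it and is not independent support. TLR7 was higher while the nearest tested gene on each side was not called, with log2 differences of -0.22 and -0.59. The one after TLR7 was counted on 1 exon, at 6.15 and 9.7 CPM. TLR8, which had too few counts to be tested, lies between it and TLR7. Farther out, the second tested gene before TLR7 was lower in chimpanzee (-1.02, edgeR adjusted p = 0.00354). The third tested gene after TLR7 was higher (1.67, edgeR adjusted p = 0.00139). UNC93B1 was not called although 5 of its 6 nearest tested genes were lower in chimpanzee, against 23.6% of all tested genes.

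**Figure D4:**
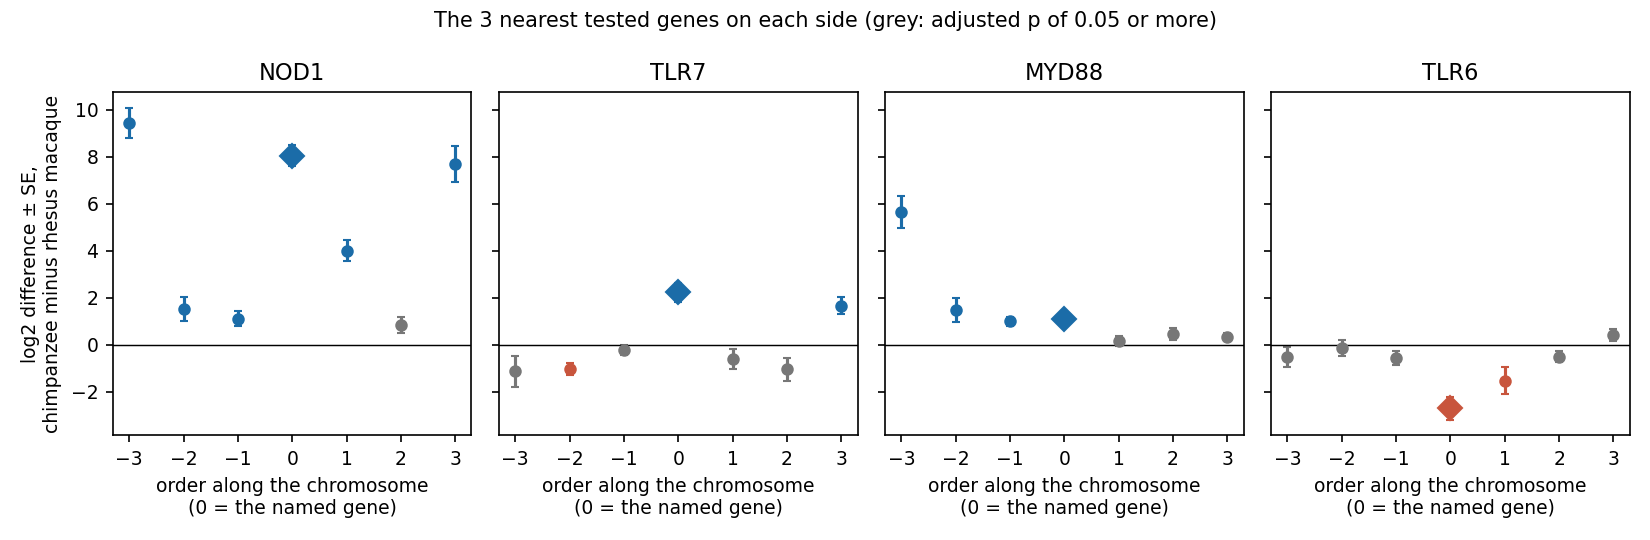
Log2 difference with its SE (y axis) of NOD1, TLR7, MYD88 and TLR6 (diamonds) and of the 3 nearest tested genes on each side in chromosome order (circles). For NOD1, 5 of 6 neighbours are higher in chimpanzee, against 1 of 6 for TLR7, 3 of 6 for MYD88 and 0 of 6 for TLR6. Some of the higher neighbours of NOD1 and MYD88 entered the test through the chimpanzee lines alone. Of all tested genes, 24.7% were higher in chimpanzee.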

How the data were processed

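The deposited files hold raw counts per exon, 1 file per library, as whole numbers, and list only exons with at least 1 count. No aligner, counting tool, genome build or rule for matching exons across species is named in the sources used here, and the library steps in the labels' protocols mark no strand. Exon counts were summed per gene, with absent exons as 0. Species were compared by edgeR's quasi-likelihood test (edgeR 4.0.16, with limma 3.58.1 under R 4.3.3) on TMM-scaled counts of all 12 libraries. Species was the only term, the expression filter was edgeR's default (minimum count 10, minimum total 15), and p-values were adjusted over all 9440 tested genes at a threshold of 0.05. Levels in CPM rest on the deposited counts and TMM-scaled library totals. A prior count of 2 was added for log2 CPM. Standard errors follow from the log2 difference and its F statistic. The glmTreat test asked for differences beyond 2-fold, and diffSpliceDGE compared the usage of exons holding 10 counts or more. DESeq2 1.42.0, other filters and scaling, sex, males only and left-out libraries were alternatives. The closest pair of libraries of a species differed by 15.6 times counting noise (chi-square per degree of freedom).

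Of the identifiers in the files, 0 matched the gene name table. Names of the set come with its definition. Names of pathway and marker genes come from a list of symbols and human identifiers, of which 77 of 84 were found, all 77 on the listed chromosome. The members and lists were chosen with earlier results of these data known. Named pathway genes are the up to 4 called genes per list and direction with the largest difference, and others named give context for a member. In simulated counts (9328 genes), 96.4%, 88.3% and 28.4% of genes changed 8-, 4- and 2-fold were called, with 7 false calls. The simulation changed 200 genes, a far smaller share than the 48.3% of tested genes called in the data. The adjustment of p-values depends on this share, so these rates need not hold for the real test. In simulated exon usage (9831 genes), 75.5% and 41.5% of exons changed 8- and 4-fold were called, with 0 false calls. Real exons may vary between lines in ways that the simulated counts do not copy. These rates and the lack of false calls thus need not hold for the real exon test. They do not back any exon called in the data.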

Additional observations from a re-analysis of the deposited data

Results flagged for a closer look

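In 2 of the 18 combinations of gene and species, 1 library lay far from the other 5 (by Dixon's ratio of gap to range on log2 CPM). Chance flags about 1 group in 20. TLR2 in macaque replicate 1 stood at 22 CPM, with the other macaque lines between 1.62 and 4.44 CPM. CD180 in chimpanzee replicate 5 stood at 25.8 CPM, with the other chimpanzee lines between 107 and 203 CPM.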

How the results depend on the processing

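NOD1, TLR7, MYD88 and TLR6 kept their direction and call under every alternative that could be fitted. NOD1 could not be fitted on exons seen in 3 libraries of each species, nor TLR1, TLR2, TLR6, TLR7 and TLR10 without the exon with most counts, since little or nothing was left of them. That setting therefore gave 0 genes of the set lower in chimpanzee and 1 beyond 2-fold. Leaving out 1 library in turn gave between 1 and 2 genes of the set lower in chimpanzee, 2 being reached without chimpanzee replicate 1. Leaving out chimpanzee replicate 1 with macaque replicates 5 and 6, lines whose chromosome 19 genes stood apart, also gave 2, with TLR1 at -0.94 (edgeR adjusted p = 0.0189). This alternative and the one without macaque replicates 2 and 6 were chosen after seeing the data. With males only, the counts over all genes were 1378 higher and 1384 lower, and 3 pathway genes were lower, with fewer samples. In the set, 2 genes were then beyond 2-fold. Of the genes not called, TLR2, TLR10 and CD180 changed sign under some alternatives, while TLR1 and UNC93B1 did not. TLR2 ran from -0.64 to 0.95 when 1 library was left out and was 0.23 with sex as a covariate. TLR10 was 0.32 with males only and 0.10 without macaque replicates 2 and 6. CD180 ran from -0.22 to 0.16 when 1 library was left out and was 0.37 without its most counted exon. Of 18 named pathway genes, 16 kept call and direction throughout and 0 changed direction. Over all exons, 749 were called for usage, and between 420 and 1106 when 1 library was left out. By plain CPM, TLR7 ranked 3 and UNC93B1 ranked 5 in chimpanzee, and in macaque CD180 ranked 1, MYD88 2, UNC93B1 3, TLR10 4 and TLR6 5. No paired analysis was possible, since each line comes from a single species and the labels link no chimpanzee line to a macaque line. Small counts limit TLR2 (92 and 79 counts in all), TLR6 in chimpanzee (67) and NOD1 in macaque (4).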
